A study of Mus musculus with 48 samples.

Results

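Genes of meiosis and of the germ cell RNA pathways were followed across testis, ovary and 3 somatic tissues of the mouse. A list of 35 gene symbols defined them, and every probe set whose only gene symbol in the platform annotation was on that list was taken. Of the 35 symbols, 27 were found, on 31 of the 22690 probe sets of the array and among 12393 genes named by a single symbol. Brdt, Dazl, Dmc1 and Msh5 had more than 1 probe set, and the probe set with the highest mean log2 level over all RNA samples stands for each gene below. The other 8 symbols, Sycp2, Syce1, Mei1, Mei4, Piwil4, Mael, Tdrd5 and Tdrd6, are not analysed here. The rule itself uses gene names and no measured value, but the list was drawn up with earlier results of these data known. All 27 lie on autosomes of the mouse assembly GRCm38.p6.

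Meiosis pairs homologous chromosomes, exchanges DNA between them and then separates them. Cohesin rings hold sister chromatids on a protein axis, programmed DNA breaks along this axis start recombination, and the synaptonemal complex zips the paired homologues together. Male germ cells also carry PIWI proteins with their small piRNAs, which silence transposons, and a set of RNA-binding proteins and helicases that store messenger RNA and time its translation. In the adult testis meiosis runs continuously, whereas in the female mouse germ cells enter meiosis before birth and then rest as oocytes.

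The gonads were testis and ovary, and liver, kidney and hypothalamus were taken from males and from females. Each of the 8 groups held 3 RNA samples, each read on 2 Affymetrix arrays (48 arrays), and the 2 arrays were averaged so that n = 3 per group. The RNA was purchased, and per the labels each sample came from a pool of 10 animals. The labels give neither strain nor age, and name no treatment. One label field describes polyA-selected RNA for testis, ovary, liver and kidney and total RNA for hypothalamus, while another gives total RNA throughout, so tests that set hypothalamus against other tissues may also carry this difference in RNA. Whether each of the 3 samples came from its own pool is not stated, and the p-values below then reflect only sample-to-sample spread, part of which may be technical.

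Intensities are given on a linear scale on which each array has a 2% trimmed mean of 500, with array medians of 163.3 to 276. The precision of the group comparisons is limited by the 3 RNA samples per group, since the 2 arrays of a sample were averaged. Testis and ovary carried their germ cell markers. The 5 spermatid markers (Prm1, Prm2, Tnp1, Tnp2 and Acrv1) summed to 59243 to 78369 in testis and 236 to 514 in the other groups. The 7 oocyte markers summed to 4282 to 6240 in ovary, against 922 to 1074 in testis and 497 to 1019 in the somatic groups. Testis sample 3 stood apart from the other testis samples: its mean correlation with them was 0.950, against 0.964 for each of the others. The counts of calls between testis and ovary, and the log2 differences of Sycp1 and Rec8, are also given without it. Other testis differences below include it.

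Nearly all of the genes were higher in testis than in ovary, by a median of 3.04 on the log2 scale over all 27 (range 0.05 to 5.89), against a median of -0.18 over all 12393 genes. All 3 testis samples lay above all 3 ovary samples for 26 of the 27, where 23.4% of all genes showed this. In the limma fit across all probe sets, on log2 of intensity plus 48.1, 24 of the 25 genes bright enough to be tested passed as higher in testis and 0 as lower (adjusted p under 0.05). Of all genes tested in this comparison, 25.9% passed as higher in testis and 45.2% as lower. Most of the 25 passed the limit on dim probe sets through testis alone, since only 5 of the 27 genes were above it in all 3 ovary samples, so the count among those tested is given as a description. Without testis sample 3 the count was again 24. RNA of whole tissue was measured, so fewer cells of a type and less RNA per cell cannot be told apart. Tex101 showed the largest difference on this scale, and Mlh3 the smallest.

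**Figure D1:**
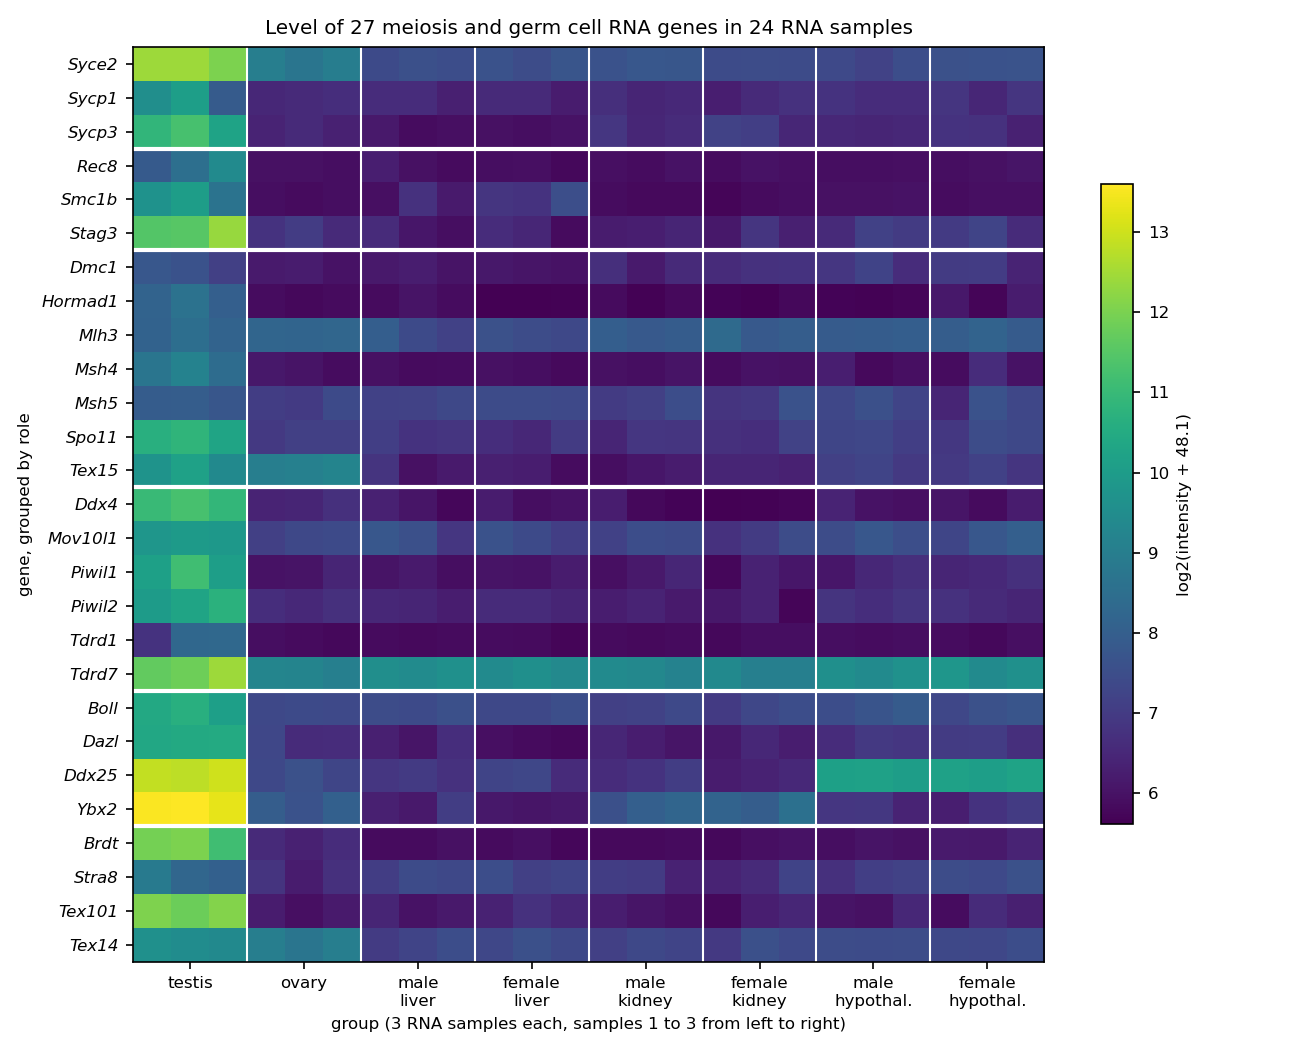
Level of each of the 27 genes (rows, grouped by role) in each of the 24 RNA samples (columns), as log2 of intensity plus 48.1, with 3 samples per group. The 3 testis columns are the brightest of nearly every row, Ddx25 is also bright in the 6 hypothalamus samples, and Tdrd7 and Mlh3 have a level in every tissue.

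The sequences around the annotated starts of the genes were examined because so many of them were high together in testis. RefSeq windows of GRCm38.p6, each with 250 bases before and 50 bases after an annotated start, were found for 24 of the 27 genes, in 33 windows. Those of Tex15, Spo11 and Piwil2 are not analysed here. The letters CACGTG, an E-box that reads the same on both strands, occurred in 14 of the 33 windows (42.4%), in 12 of the 24 genes, against 7.15% of all 32851 windows. GGCGGGAA, an E2F-type motif searched on both strands, occurred in 7 windows (21.2%), in 6 genes, against 2.19%. CAGTTG, a MYB-type motif, occurred in 12.1% of the windows against 13.7% of all windows, and the cyclic AMP response element TGACGTCA in 0 of 33 against 1.79%. None of these 4 motifs contains another. The windows of the set were also richer in CpG, with a median observed over expected ratio of 0.738 against 0.384 over all windows. Among windows with a ratio above 0.6 alone, CACGTG occurred in 46.2% of 26 against 11.3% of 11756, and GGCGGGAA in 26.9% against 4.77%. Windows of the same gene overlap in part, so windows are not independent, and a match describes letters, not binding.

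The following 6 windows, chosen after the matches were seen, show the range from several matches to none, each printed 5′ to 3′ with the matches in capitals. Sycp3 and Hormad1 carry a pair of E-boxes close to the start, and Ddx4 an E-box with an E2F-type match. Piwil1 carries a pair of E-boxes farther upstream with a MYB-type match. Tex14 carries an E2F-type and a MYB-type match without an E-box. Mlh3 carries no match at all, as do several genes that were higher in testis.
Sycp3, chr10:88459337-88459636, plus strand: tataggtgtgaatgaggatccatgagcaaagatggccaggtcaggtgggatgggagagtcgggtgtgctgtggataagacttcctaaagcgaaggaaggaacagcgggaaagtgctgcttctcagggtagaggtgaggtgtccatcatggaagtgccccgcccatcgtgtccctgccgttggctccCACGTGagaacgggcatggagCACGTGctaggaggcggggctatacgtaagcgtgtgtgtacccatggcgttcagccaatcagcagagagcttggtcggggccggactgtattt
Hormad1, chr3:95559427-95559726, plus strand: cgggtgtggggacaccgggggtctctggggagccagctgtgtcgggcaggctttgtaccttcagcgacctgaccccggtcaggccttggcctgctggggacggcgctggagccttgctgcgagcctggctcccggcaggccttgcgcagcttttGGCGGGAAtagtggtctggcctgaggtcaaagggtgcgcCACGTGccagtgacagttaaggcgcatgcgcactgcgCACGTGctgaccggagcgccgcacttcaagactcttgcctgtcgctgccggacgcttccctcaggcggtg
Ddx4, chr13:112652261-112652560, minus strand: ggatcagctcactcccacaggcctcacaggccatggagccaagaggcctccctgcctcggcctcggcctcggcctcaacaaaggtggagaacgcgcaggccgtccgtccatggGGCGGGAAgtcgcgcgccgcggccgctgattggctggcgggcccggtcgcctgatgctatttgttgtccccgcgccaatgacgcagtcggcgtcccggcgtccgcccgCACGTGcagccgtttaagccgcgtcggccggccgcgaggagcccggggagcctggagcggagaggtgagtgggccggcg
Piwil1, chr5:128735996-128736295, plus strand: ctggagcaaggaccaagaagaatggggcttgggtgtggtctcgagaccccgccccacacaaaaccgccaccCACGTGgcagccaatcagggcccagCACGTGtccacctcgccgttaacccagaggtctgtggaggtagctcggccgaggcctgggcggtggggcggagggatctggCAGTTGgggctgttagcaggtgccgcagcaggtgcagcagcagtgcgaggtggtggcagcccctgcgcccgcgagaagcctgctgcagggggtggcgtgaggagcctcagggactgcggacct
Tex14, chr11:87404815-87405114, plus strand: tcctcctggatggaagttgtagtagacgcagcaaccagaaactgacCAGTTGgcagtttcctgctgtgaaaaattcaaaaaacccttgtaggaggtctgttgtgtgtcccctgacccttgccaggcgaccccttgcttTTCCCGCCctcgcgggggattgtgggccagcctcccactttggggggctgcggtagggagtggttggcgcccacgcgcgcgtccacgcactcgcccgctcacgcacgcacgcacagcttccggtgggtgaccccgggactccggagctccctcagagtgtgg
Mlh3, chr12:85270550-85270849, minus strand: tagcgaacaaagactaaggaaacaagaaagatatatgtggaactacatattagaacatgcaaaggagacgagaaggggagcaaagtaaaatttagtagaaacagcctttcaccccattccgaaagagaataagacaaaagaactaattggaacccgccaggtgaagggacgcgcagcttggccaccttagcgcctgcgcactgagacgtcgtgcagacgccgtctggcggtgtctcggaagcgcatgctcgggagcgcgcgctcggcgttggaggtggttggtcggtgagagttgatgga
Counted so that -1 is the base before the annotated start, the E-boxes of Sycp3 begin at -64 and -43, those of Hormad1 at -57 and -20, that of Ddx4 at -29 and those of Piwil1 at -179 and -154. The E2F-type matches begin at -96 in Hormad1, at -137 in Ddx4 and at -112 in Tex14. E-boxes were not a mark of every gene with a large difference: Tex101, Ybx2 and Dazl, with log2 differences of 5.89, 5.60 and 3.61, had none of the 4 motifs in their windows. Smc1b, Msh4, Rec8, Stra8 and Dmc1 had none either, and their testis samples all lay above their ovary samples. Ddx25 had its only E-box after the start, beginning at position 38.

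**Figure D2:**
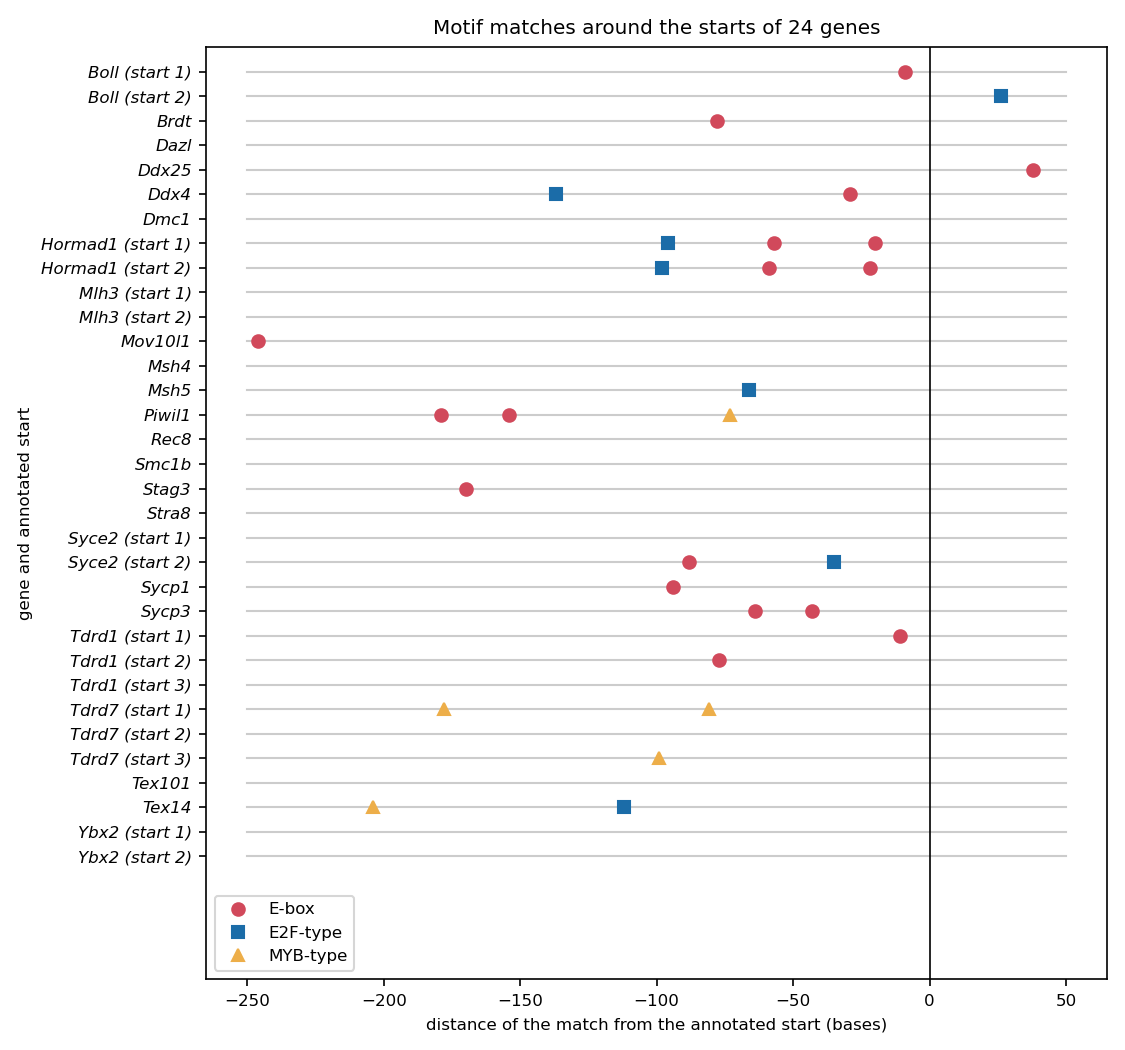
Position of each motif match (points) relative to the annotated start at 0, in bases, in the 33 windows (grey lines, 250 bases before to 50 after the start) of 24 genes. Circles are CACGTG, squares GGCGGGAA and triangles CAGTTG, and many of the circles lie within the last 100 bases before the start.

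The genes of the synaptonemal complex were all higher in testis. Sycp3, a protein of the lateral elements that form along each chromosome axis, had intensities of 1824, 2435 and 1167 in the 3 testis samples, against 36.5, 47.2 and 34.0 in ovary. Its log2 difference was 4.36 ± 0.24 (SE, limma adjusted p = 4.722e-07), and the groups lay far apart. Syce2, a protein of the central element, had 5498, 5489 and 4149.7 in testis, against 478, 372 and 468 in ovary. The groups of Syce2 did not overlap either, by a log2 difference of 3.38 ± 0.18 (SE, limma adjusted p = 3.323e-07), and the ovary values stood above those of every somatic sample, which ran from 96.6 to 174. Sycp1, the transverse filament that links both sides of the complex, had 712, 1040.1 and 193 in testis, against 43.3, 47.1 and 53.4 in ovary. Testis sample 3 was far below the other testis samples for Sycp1 and still above every ovary sample. The log2 difference of Sycp1 was 2.59 ± 0.47 (SE, limma adjusted p = 0.0007787), and 3.25 without testis sample 3.

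The meiotic cohesin subunits showed the same direction. Stag3, the meiotic stromal antigen subunit, had 2746, 2899 and 5278 in testis, against 62.8, 82.8 and 46.9 in ovary, a log2 difference of 5.01 ± 0.25 (SE, limma adjusted p = 2.614e-07). Smc1b, the meiotic form of a core ring protein, had 778, 1008 and 357 in testis, against 11.7, 8.9 and 11.8 in ovary, a log2 difference of 3.58 ± 0.31 (SE, limma adjusted p = 6.167e-06). The 2 genes ran in opposite directions among the testis samples: sample 3 was the highest for Stag3 and the lowest for Smc1b. Rec8, the meiotic kleisin that closes the ring, had 188, 321 and 638 in testis, against 14.7, 14.9 and 11.5 in ovary. Its groups did not overlap, and its log2 difference was 2.62 ± 0.35 (SE, limma adjusted p = 0.0001027), or 2.19 without testis sample 3. Rec8 was not among the genes called with technical replicate arrays only. The 2 arrays of its testis sample 1 lay at -0.18 and -1.45 from the testis mean on the log2 scale. No cohesin subunit reached the limit for testing in ovary against the somatic groups.

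Genes of recombination and of the chromosome axis had the lowest median log2 difference of the 6 roles, 1.37 over 7 genes (range 0.05 to 3.54). Spo11, which makes the DNA breaks that start recombination, had 1542, 1765 and 1186 in testis, against 73.3, 90.3 and 90.2 in ovary, a log2 difference of 3.54 ± 0.18 (SE, limma adjusted p = 2.724e-07). Msh4, which stabilises recombination intermediates together with Msh5, had 376, 524 and 299 in testis, against 21.4, 17.0 and 10.8 in ovary, a log2 difference of 2.77 ± 0.20 (SE, limma adjusted p = 2.186e-06). Hormad1, an axis protein that monitors pairing, had 237, 349 and 215 in testis, against 10.1, 7.05 and 9.10 in ovary, a log2 difference of 2.44 ± 0.19 (SE, limma adjusted p = 2.918e-06). For these genes the ovary values lay among those of the somatic samples. Dmc1, the meiotic strand-exchange recombinase, had 171, 148 and 90.1 in testis, against 25.1, 26.5 and 16.2 in ovary, and was too dim to be tested. Its other probe set was tested and was higher in testis by 1.97 ± 0.19 (SE, limma adjusted p = 1.491e-05), with 219, 219.8 and 178 in testis, against 36.3, 8.45 and 7.85 in ovary.

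The remaining genes of recombination differed little. Msh5 had 196, 203 and 167 in testis, against 86.2, 75.9 and 119.9 in ovary, a log2 difference of 0.74 ± 0.17 (SE, limma adjusted p = 0.003304). Its second probe set was too dim to be tested and its groups overlapped. Tex15, which is needed to repair meiotic breaks in mouse spermatocytes, had 789.8, 1112 and 634 in testis, against 477, 497 and 548 in ovary. The groups of Tex15 did not overlap and the log2 difference was 0.65 ± 0.20 (SE, limma adjusted p = 0.0173), but the call was lost without testis sample 2 (adjusted p = 0.0528), ovary sample 1 (0.0574) or ovary sample 2 (0.0544). Mlh3, which resolves recombination intermediates into crossovers and also acts in DNA mismatch repair, had 234, 313 and 235 in testis, against 248, 243 and 257 in ovary. These groups overlapped, and Mlh3 did not pass (log2 difference 0.05 ± 0.16, SE, limma adjusted p = 0.809). Under median centring or quantile normalization of the arrays, which move the median difference of all genes tested to 0.07 and -0.11 from -0.33, Mlh3 passed as higher in testis by 0.43 (adjusted p = 0.0442 and 0.0376).

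**Figure D3:**
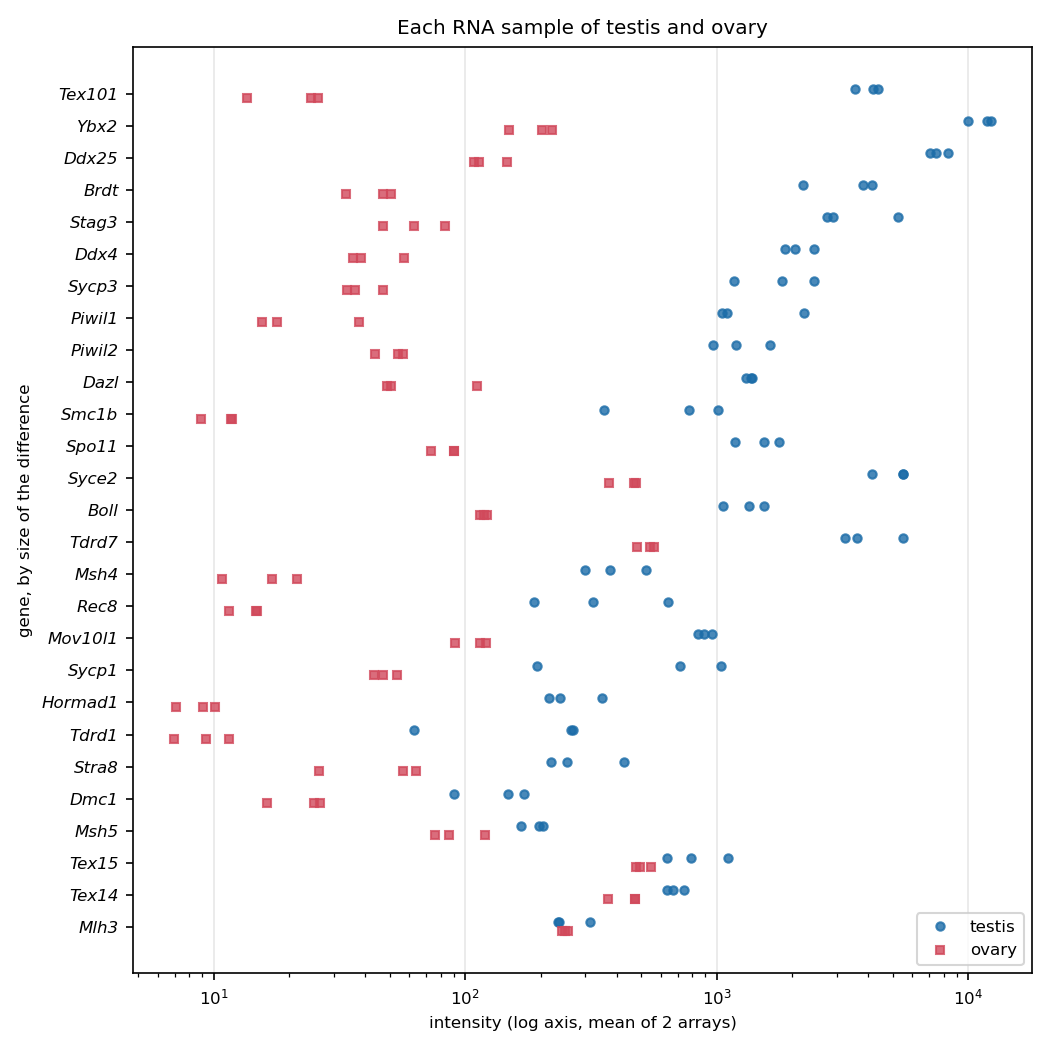
Intensity (log axis) of each of the 27 genes in the 3 testis samples (circles) and the 3 ovary samples (squares), ordered by the log2 difference. The circles lie to the right of the squares for every gene but Mlh3, and for Tex14 and Tex15 the gap is narrow.

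Among the piRNA pathway genes, 5 of 6 were bright enough to be tested and all 5 were higher in testis, where 25.9% of all genes tested were. Ddx4, Piwil1, Piwil2 and Mov10l1 passed the limit on dim probe sets through testis alone, so this count is a description. Ddx4, the mouse homologue of the helicase vasa, had 2042, 2445 and 1875 in testis, against 35.8, 38.4 and 56.9 in ovary, a log2 difference of 4.57 ± 0.17 (SE, limma adjusted p = 4.959e-08). Piwil1, the PIWI protein of later spermatocytes and round spermatids, had 1096, 2229 and 1045 in testis, against 15.6, 17.9 and 37.7 in ovary, a log2 difference of 4.33 ± 0.28 (SE, limma adjusted p = 9.855e-07). Piwil2, a PIWI protein present from earlier stages, had 962, 1197 and 1626 in testis, against 53.8, 43.9 and 56.6 in ovary, a log2 difference of 3.71 ± 0.20 (SE, limma adjusted p = 4.046e-07). Both PIWI genes were separated in every sample, and they differed in which testis sample was highest, sample 2 for Piwil1 and sample 3 for Piwil2. Mov10l1, a helicase of piRNA production, had 841, 955 and 892 in testis, against 90.9, 115 and 121 in ovary, a log2 difference of 2.60 ± 0.15 (SE, limma adjusted p = 6.478e-07).

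The Tudor domain proteins of this pathway, which gather PIWI proteins into granules, differed from each other. Tdrd7 had 3230.4, 3626 and 5507 in testis, against 561, 543 and 480.2 in ovary, a log2 difference of 2.82 ± 0.21 (SE, limma adjusted p = 2.447e-06). Its level outside testis was not confined to ovary, since the 18 somatic samples ran from 489 to 840.4 with a median of 647. Tdrd1 had 62.4, 264 and 269 in testis, against 11.5, 9.35 and 6.95 in ovary. Tdrd1 was separated in every sample but was too dim in testis sample 1 to enter the test. With no limit on dim probe sets, Tdrd1 passed as higher in testis by 1.94 and Dmc1 by 1.37 (limma adjusted p = 0.00255 and 0.000381).

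Germ cell genes of RNA binding and translation had a median log2 difference of 4.56 over 4 genes. Ybx2, a protein that stores messenger RNA in germ cells, had 11891, 12331 and 9996 in testis, against 201, 149 and 221 in ovary, a log2 difference of 5.60 ± 0.18 (SE, limma adjusted p = 1.885e-08). Ddx25, a helicase needed for translation in mouse spermatids, had 7438, 7067 and 8322 in testis, against 113, 146 and 108 in ovary, a log2 difference of 5.51 ± 0.16 (SE, limma adjusted p = 1.1e-08). Dazl, a translational regulator of germ cells, had 1305, 1369 and 1380.1 in testis, against 111, 48.7 and 50.9 in ovary, a log2 difference of 3.61 ± 0.21 (SE, limma adjusted p = 5.391e-07). By this probe set the testis samples of Dazl were the closest together of all 27 genes, with a coefficient of variation of 2.98%. Its second probe set gave the same direction but a wider spread, with 1874, 2382 and 1782 in testis. Boll, a relative of Dazl, had 1341, 1541 and 1063 in testis, against 114, 122 and 119 in ovary, a log2 difference of 3.04 ± 0.17 (SE, limma adjusted p = 4.722e-07).

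The last 4 genes act at meiotic entry, on chromatin, at the bridges between germ cells and at the cell surface. Tex101, a surface glycoprotein of germ cells, had 4174, 3531 and 4393 in testis, against 26.0, 13.6 and 24.3 in ovary, a log2 difference of 5.89 ± 0.16 (SE, limma adjusted p = 9.892e-09). Brdt, a bromodomain protein that reads acetylated histones in spermatocytes and spermatids, had 3828, 4134 and 2206 in testis, against 47.0, 33.5 and 50.8 in ovary, a log2 difference of 5.20 ± 0.24 (SE, limma adjusted p = 1.47e-07). In ovary both genes lay within or just above the range of the somatic samples, 7.25 to 59.2 for Tex101 and 6.25 to 37.3 for Brdt. Stra8, which retinoic acid induces at the entry into meiosis, had 429.6, 254 and 218 in testis, against 63.8, 26.1 and 56.7 in ovary, a log2 difference of 1.73 ± 0.28 (SE, limma adjusted p = 0.0003884). Stra8 was not among the genes called with first arrays only. The 2 arrays of its testis sample 3 lay at -1.47 and 0.44 from the testis mean on the log2 scale. Tex14, a protein of the bridges that join dividing germ cells, had 738, 668 and 634 in testis, against 471, 371 and 471 in ovary. The samples of Tex14 did not overlap, though the log2 difference was the smallest of those that passed (0.59 ± 0.16, SE, limma adjusted p = 0.007752).

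Against the 6 somatic groups, each with equal weight, all 25 of the genes bright enough to be tested were higher in testis, where 30.5% of all genes tested passed as higher and 47.7% as lower. This comparison shares the testis samples with the one against ovary, and here too most of the genes passed the limit on dim probe sets through testis alone. Over all 27 genes the median log2 difference was 3.28 (range 0.44 to 6.47), against -0.17 over all genes. All 3 testis samples lay above all 18 somatic samples for 25 of the 27, where 16.5% of all genes showed this. The exceptions were Mlh3, which had 95.2 to 281 in somatic samples, and Dmc1, which had 15.4 to 102 there. The other probe set of Dmc1 was separated, with 178 to 219.8 in testis, against 6.55 to 48.7 in the somatic samples. Ybx2 differed by 6.47 ± 0.17 (SE, limma adjusted p = 6.628e-18) and Brdt by 5.75 ± 0.13 (SE, limma adjusted p = 5.822e-19). Mlh3 passed by only 0.44 ± 0.14 (SE, limma adjusted p = 0.005433), and not without testis sample 2 (adjusted p = 0.0685).

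Ovary was next set against the 6 somatic groups, and Tex15, Tex14 and Syce2 had the largest differences. Over all 27 the median log2 difference was 0.01 (range -0.52 to 2.63), against 0.07 over all genes. Of the 11 bright enough to be tested, 5 passed as higher in ovary and 3 as lower, where 39.1% of all genes tested passed as higher and 24.6% as lower. All 3 ovary samples lay above all 18 somatic samples for 3 genes, Tex15, Tex14 and Syce2, where 13.3% of all genes showed this. The counts were thus close to the background of all genes.

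Tex15 had its 477, 497 and 548 in ovary against 10.7 to 102 (median 35.5) in somatic samples, a log2 difference of 2.63 ± 0.13 (SE, limma adjusted p = 1.086e-12). Tex14 had its 471, 371 and 471 in ovary against 75.4 to 143 (median 115), a log2 difference of 1.59 ± 0.12 (SE, limma adjusted p = 7.64e-10). Syce2 was higher in ovary by 1.39 ± 0.09 (SE, limma adjusted p = 6.522e-11), with a somatic median of 138. These 3 genes were thus separated from every somatic sample although each was higher still in testis. The summed oocyte markers were 6240, 4282 and 6049 in ovary samples 1 to 3, and sample 2 was also the lowest of the 3 for Tex14 and Syce2 but not for Tex15. Their part in the result was not tested.

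Ybx2 was higher in ovary than in the mean of the somatic groups by 0.87 ± 0.17 (SE, limma adjusted p = 0.0002067), but its ovary values fell among those of kidney. Mlh3 passed by 0.40 ± 0.12 (SE, limma adjusted p = 0.009669), and not under median centring (adjusted p = 0.13) or quantile normalization (0.113). The 3 genes lower in ovary were Stra8, by -0.52 ± 0.16 (SE, limma adjusted p = 0.009671), Ddx25, by -0.50 ± 0.12 (SE, limma adjusted p = 0.001547), and Tdrd7, by -0.28 ± 0.10 (SE, limma adjusted p = 0.01821). Stra8 was no longer called without ovary sample 2 (adjusted p = 0.125), and was too dim to be tested with the technical replicate arrays alone or against female somatic groups alone. Tdrd7 was not called without ovary sample 3 (adjusted p = 0.125), with first arrays only (0.0722), with all 8 groups in 1 fit (0.0564), against liver and kidney alone (0.0905) or against female somatic groups alone (0.0774). Ddx25 had 113, 146 and 108 in ovary, which lay above most liver and kidney samples and below all of hypothalamus (1017 to 1155), and against liver and kidney alone it was too dim to be tested. Boll, Mov10l1 and Msh5 did not pass.

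Ddx4 and Dazl, which mark germ cells in many studies, and Brdt, described above for spermatocytes and spermatids, were dim in ovary and below the limit for testing. Ddx4 had 35.8, 38.4 and 56.9 in ovary against 1.35 to 36.8 in somatic samples, and Brdt had 47.0, 33.5 and 50.8 against 6.25 to 37.3. Dazl had 111, 48.7 and 50.9 in ovary, against 7.20 to 83.4. For each of them the ranges overlapped. With no limit on dim probe sets the fit called Ddx4, Dazl and Brdt higher in ovary, by 0.54, 0.44 and 0.55 (limma adjusted p = 0.001722, 0.01355 and 6.242e-06). The second probe set of Brdt ran the other way through hypothalamus, with 13.8, 20.7 and 5.95 in ovary, against 68.4 to 117 in hypothalamus and 2.70 to 12.8 in liver and kidney. With no limit, Dmc1 was also called, as lower in ovary, and 56.0% of all genes passed in either direction.

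**Figure D4:**
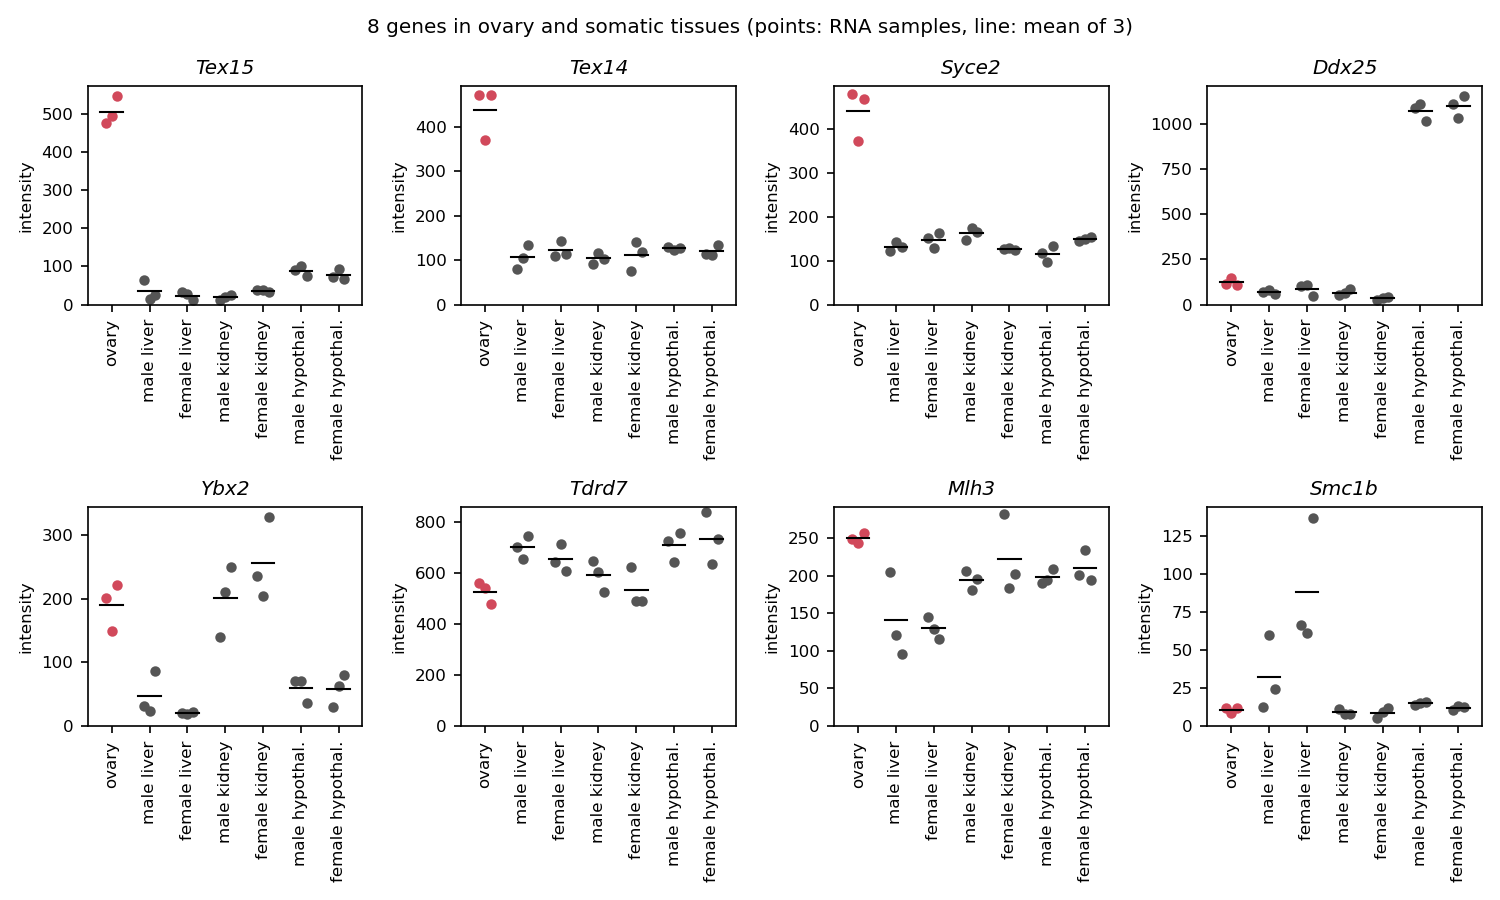
Intensity (linear axes from 0, a scale of its own per gene) of 8 genes in ovary and in the 6 somatic groups, with points for RNA samples and lines for means of 3. Tex15, Tex14 and Syce2 stand out in ovary, Ddx25 in hypothalamus and Ybx2 in ovary and kidney, while Tdrd7 has a similar level in each group.

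Within the somatic tissues a few of the genes had levels of their own. Ddx25 had 1091, 1114 and 1017 in male hypothalamus and 1114, 1035 and 1155 in female hypothalamus, against 47.8 to 111 in liver and 27.1 to 85.1 in kidney. Every hypothalamus sample was thus far above every sample of the other somatic tissues, and below every testis sample. In a comparison added after these values were seen, Ddx25 was higher in hypothalamus than in liver and kidney by 3.38 ± 0.10 (SE, limma adjusted p = 1.397e-15), which the difference in RNA noted above also separates. Ybx2 had 140.2 to 328 (median 224) in kidney, against 19.14 to 86.0 in liver and 30.0 to 80.4 in hypothalamus. No kidney sample of Ybx2 overlapped with the other somatic tissues, and kidney was higher by 1.59 ± 0.14 (SE, limma adjusted p = 1.536e-08). Smc1b ran from 12.6 to 137 in liver, against 5.10 to 15.7 in kidney and hypothalamus together, and stayed below the limit for testing.

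Each of these added comparisons tested 10 of the genes. In hypothalamus against liver and kidney 5 were higher and 1 lower, where 44.8% of all genes tested passed as higher and 35.9% as lower. In kidney against the other tissues 2 were higher and 4 lower (31.9% and 37.9% of all genes tested), and in liver 0 were higher and 3 lower (28.3% and 46.6%). The splits turn with the scaling of the arrays: under quantile normalization they were 1 higher and 4 lower for hypothalamus, 3 and 3 for kidney, and 5 and 3 for liver. Ddx25 in all 3 comparisons, and Ybx2 in kidney and liver, kept their direction and call under every alternative run.

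The genes were also compared between the sexes within each somatic tissue, the question named by the title of the series. None passed in limma: 0 of 7 tested in liver, 0 of 4 in kidney and 0 of 3 in hypothalamus, and 0 in each had an unadjusted p under 0.05. Few genes passed at all, 0.0351% of those tested in liver, 0.295% in kidney and 0.0244% in hypothalamus. With samples of the same number treated as pairs (a replicate block) the counts of the 27 genes were again 0, while the shares of all genes tested that passed were 0.0586% in liver, 1.17% in kidney and 0.0244% in hypothalamus. The male-female difference was also set between tissues for 10 of the genes in limma, and 0 passed (lowest adjusted p = 0.645). At an unadjusted p under 0.05 there were 3, 1 and 0 for liver minus kidney, kidney minus hypothalamus and liver minus hypothalamus. The share of all genes was not counted for these differences, so the counts have no background to be read against. Genes that miss the threshold are not shown to be equal, and over all 27 genes the male minus female log2 difference ran from -0.72 to 0.46 in liver, from -0.34 to 0.42 in kidney and from -0.47 to 0.27 in hypothalamus.

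Among the 3 testis samples the genes did not move as a block. Sample 3 was the lowest for 17 of the 27 genes, on both of its arrays for 12 of them, and the highest for 8. Over all 7746 genes above the limit in testis it was the lowest for 39.7% and the highest for 41.1%. Rec8, Stag3, Tdrd7, Piwil2 and Ddx25 were highest in sample 3 on both arrays, whereas Sycp1, Smc1b, Brdt and Sycp3 fell farthest below the mean there. Sample 2 was the highest for 15 of the 27 genes, 13 of them on both arrays, where 26.5% of the 7746 genes were highest there. The median coefficient of variation of the 27 genes in testis was 26.8%, against 18.6% over all genes above the limit.

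The summed cell type markers also differed among these samples. The spermatid markers summed to 78369, 78078 and 59243 in testis samples 1 to 3, and Acrv1, a gene of the acrosome, had 4578, 4873 and 1117. The 3 Leydig cell markers measured (Hsd17b3, Cyp17a1 and Star) summed to 5886, 5452 and 10835, and the 5 Sertoli cell markers to 2060.2, 2126 and 2519.8. Sample 3 was thus the lowest for the spermatid sum and the highest for both somatic sums of the testis. The Sertoli cell markers did not all share this. Cldn11, Wt1 and Sox9 were highest in sample 3, but Rhox5 (818, 799 and 815) and Dhh (438, 333 and 435) were not. The part of the cell type markers in the spread of the meiotic genes was not tested.

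**Figure D5:**
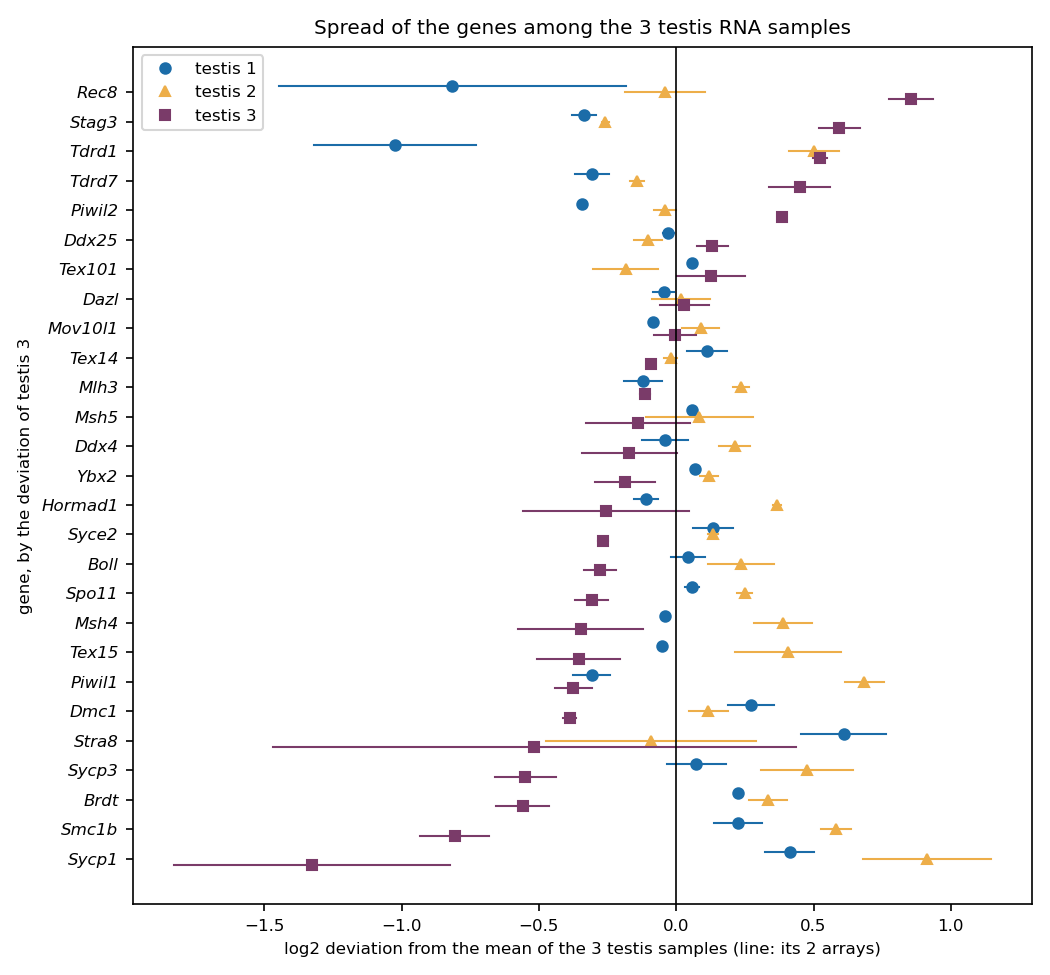
Deviation of each testis sample from the mean of the 3, on the log2 scale, for the 27 genes (points are samples 1, 2 and 3, lines join the 2 arrays of a sample). Sample 3 lies lowest for 17 genes, farthest for Sycp1, and highest for 8, among them Rec8 and Stag3.

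Of 57 other genes of the same pathways, 19 were on the array and 14 were bright enough to be tested between testis and ovary. Of these, 11 were higher in testis, 1 was lower and 2 did not pass, where 25.9% of all genes tested passed as higher and 45.2% as lower. Several of the 14, Tex12 among them, were bright enough through testis alone, so this count too is a description. Without testis sample 3 the counts were 12 higher and 1 lower. Tex12, a protein of the central element, had 1416, 1443 and 1042 in testis, against 12.2, 9.75 and 11.6 in ovary, a log2 difference of 4.49 ± 0.17 (SE, limma adjusted p = 4.959e-08). Ccna1, the cyclin of the meiotic divisions in male mice, had 1725, 1742 and 3145 in testis, against 96.4, 76.6 and 94.8 in ovary, a log2 difference of 4.04 ± 0.23 (SE, limma adjusted p = 5.733e-07). Psmc3ip, a cofactor of Dmc1, had 4240.4, 3889 and 3326 in testis, against 164, 262 and 249 in ovary, a log2 difference of 3.84 ± 0.19 (SE, limma adjusted p = 2.386e-07). All 3 were separated in every sample. Cpeb1, a regulator of translation in oocytes, was the gene lower in testis, by -0.44 ± 0.17 (SE, limma adjusted p = 0.03904), with 93.4, 131 and 127 in testis, against 204, 168 and 156 in ovary. Cpeb1 did not pass as lower without ovary sample 1, 2 or 3 or without testis sample 1, nor under median centring, quantile normalization, 4 times the pseudocount or a replicate block. Trip13 and Cntd1 did not pass by their brightest probe sets, while other probe sets of both passed as higher in testis, by 0.74 for Trip13 and by 3.14 and 4.22 for Cntd1.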

How the data were processed

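RNA of 24 samples was measured on 48 arrays. The authors deposited a linear intensity for every probe set of each array, with 2% trimmed means of 500.11 to 500.23. Which software made these values is not stated in the labels. The list of members, the other gene lists, the comparisons and the rule for naming genes were chosen with earlier results of these data known. Arrays were grouped by title and scaled to a 2% trimmed mean of 500, and log2 of intensity plus 48.1 (the 20th percentile) was averaged over the 2 arrays of an RNA sample, which understates ratios of dim genes. Of 22626 probe sets without the 64 controls, 20380 had 1 gene symbol, 691 several and 1555 none, and 20351 were matched to GRCm38.p6 by Entrez ID. Probe sets above the 40th percentile of their sample in at least 3 RNA samples of a comparison were fitted with lmFit and eBayes of limma 3.58.1, run under R 4.3.3, with Benjamini-Hochberg adjustment over all probe sets tested and a threshold of 0.05. Gonad comparisons against somatic groups weighted the 6 groups equally. Values were to be given for up to 4 members per role with the largest difference between testis and ovary, for members higher in ovary and for members bright in a somatic group, and are given here for all 27. The fit was tested on simulated data.

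Samples of the same number deviated together between the sexes (correlations 0.535, 0.139 and 0.482 in liver, 0.591, 0.424 and 0.627 in kidney, 0.39, 0.101 and 0.327 in hypothalamus). The main fits between the sexes were unpaired. The numbers were taken as pairs there only in an alternative fit (a replicate block), from the data and not from the labels. Between testis and ovary the correlations were 0.0426, 0.146 and 0.0425 and did not pair the samples. Alternatives were other pseudocounts, scalings, array subsets, filters, groups in the fit and samples left out. The 3 comparisons between somatic tissues, and the 2 genes valued in them, were chosen after the values were seen.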

Additional observations from a re-analysis of the deposited data

How the results depend on the processing

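Counts of genes called kept within 1.5 times their value under every alternative for testis against ovary (23 to 26, with or without the limit on dim probe sets), testis against the somatic groups (24 to 27), the sexes (0 throughout), ovary against the somatic groups (6 to 12, against 8) and the other pathway genes (11 to 15, against 12). Leaving out 1 sample at a time gave 23 to 24, 24 to 25, 7 to 8, and 0 for each tissue between the sexes, 3 to 4 for liver against the other tissues, 5 to 7 for kidney, 3 to 6 for hypothalamus (3 without male hypothalamus sample 3) and 11 to 13 for the other pathway genes. With a replicate block the counts were 24, 25, 8 and 0, and it changed no other call of the 27 genes. Among the added comparisons liver gave 7 calls under median centring, 8 under quantile normalization and 9 with no limit, against 3. Kidney gave 11 with no limit, against 6. Hypothalamus gave 3 under median centring, 3 with either array alone and 14 with no limit, against 6. With no limit all 27 genes were tested in each of these, against 10 in the main fits, so these counts have another base. The shares of all genes called with no limit were 66.7% for liver, 62.7% for kidney and 73.7% for hypothalamus. In the main fits they were 74.9%, 69.8% and 80.7%. In the gonad comparisons signs turned for 4 values that were not called. One was Mlh3 in testis against ovary (-0.0714 without testis sample 2, where Tex101 had 5.98). The others, in ovary against the somatic groups, were Msh5 (0.0419 with technical replicate arrays only), Mov10l1 (0.0019) and Boll (0.0191), both with liver and kidney only. Signs in the added comparisons were followed for Ddx25 and Ybx2 alone. Tex14, not called in hypothalamus in the main fit, was called higher there with first arrays only and lower under quantile normalization. Ybx2 in hypothalamus, -0.49 against liver and kidney, lost its call with first arrays only (-0.22). Over all genes, calls in testis against ovary were 2376 higher and 4135 lower, and 3386 and 2939 under median centring. The causes were not tested. Dim probe sets limit Tdrd1 and the brighter probe set of Dmc1, which were not tested between testis and ovary. Of 896 levels recomputed under other settings, 684 moved by less than the spread between replicates and 212 by more.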
